A study of Homo sapiens with 12 samples.

Results

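Amino acid transporters carry amino acids across the plasma membrane, and 10 of them were followed here at the level of RNA and of ribosome footprints, the mRNA fragments protected by translating ribosomes. The 10 genes were chosen by name (SLC1A4, SLC1A5, SLC3A2, SLC7A1, SLC7A2, SLC7A5, SLC7A11, SLC38A1, SLC38A2 and SLC43A1) out of 19037 genes in the footprint table and 19038 in the RNA table, by a rule that names them and sets no threshold on a measured value. Each had 1 transcript in both tables, and all 10 had enough counts to be tested in both assays.

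The tumours were xenografts of 22Rv1, an established human prostate cancer cell line, grown under the skin of male NSG mice. Treated mice received zotatifin at 0.3 mg/kg by intraperitoneal injection, and control mice received its solvent, 5% dextrose, by the same route. Zotatifin inhibits eIF4A, the RNA helicase that prepares mRNA leaders for the scanning ribosome. Tumours were taken at 6 h, and each was lysed once for both assays, so that there were 12 libraries in 4 groups of 3: footprints with zotatifin, footprints with vehicle, RNA with zotatifin and RNA with vehicle. All tumours come from 1 cell line, and NSG mice lack lymphocytes but keep their own fibroblasts, blood vessels and myeloid cells, whose RNA is part of a tumour lysate.

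Footprint libraries held 838135 to 1540867 counts with zotatifin and 1592316 to 2013968 with vehicle, and RNA libraries held 6594884 to 8153674 with zotatifin and 5761921 to 7121802 with vehicle. Levels are CPM (counts scaled to library size) after TMM scaling, which assumes most genes do not change, so a change shared by all mRNAs is not seen in them. All 12 markers fixed for prostate epithelium and 22Rv1, among them KLK3 and HOXB13, had counts in both assays. Their summed footprint level was 5648 to 6426 CPM with zotatifin and 4327 to 5656 CPM with vehicle. The 10 fibroblast markers summed to 144 to 266 CPM in zotatifin footprints and 477 to 812 CPM in vehicle footprints, and in RNA to 72.5 to 135 CPM with zotatifin and 228 to 371 CPM with vehicle. The 7 myeloid markers, of which CD14 was at 0 in footprints and TYROBP at 0 in RNA, summed to 29.8 to 55.2 CPM in zotatifin footprints and 65.5 to 299 CPM in vehicle footprints. Their RNA sums overlapped, at 10.6 to 19.8 CPM with zotatifin and 15.9 to 48.3 CPM with vehicle. The 6 endothelial markers (EMCN at 0 in footprints) reached at most 3.68 CPM in zotatifin footprints and 4.45 CPM in vehicle footprints, and the 6 of red blood cells ranged over 139 to 172 CPM with zotatifin and 127 to 326 CPM with vehicle. Fibroblast sums thus lay lower with zotatifin in every library of both assays. Their part in the results below was not tested, and in a bulk tumour fewer cells of a type and less RNA per cell cannot be told apart.

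The 10 genes fall into families with distinct transport modes. SLC1A4 (ASCT1) and SLC1A5 (ASCT2) exchange small neutral amino acids with sodium, and SLC1A5 is a main route of glutamine entry in many cancers. SLC3A2 (CD98 heavy chain) carries no amino acid itself: it forms a disulfide-linked pair with a light chain and brings it to the cell surface. SLC7A5 (LAT1) is the light chain for leucine and other large neutral amino acids, and SLC7A11 (xCT) is the light chain that takes up cystine in exchange for glutamate and so feeds glutathione synthesis. SLC7A1 (CAT1) and SLC7A2 (CAT2) carry arginine, lysine and ornithine without a heavy chain. SLC38A1 (SNAT1) and SLC38A2 (SNAT2) take up glutamine, alanine and other neutral amino acids with sodium, and SLC43A1 (LAT3) lets branched-chain amino acids pass down their gradient and was first described as a gene of high expression in prostate cancer. Several of these genes are known targets of ATF4, the transcription factor that is made when amino acids run short and that binds composite C/EBP-ATF response elements in DNA.

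Promoter windows of 8 of the 10 genes were found by symbol in RefSeq (GRCh38.p14), 15 windows in all, since some genes have several annotated starts. Each window runs from 250 bases before a transcript's start to 50 bases after it. SLC7A2 and SLC7A11 are not in that promoter table. The core of the C/EBP-ATF element was searched as TGATGNAA on both strands, and it was found in 5 of the 15 windows (33.3%) and in 3.62% of all 35116 windows, or by gene in 5 of 8 members and 4.46% of 27305 genes. A match describes letters in a window and is not a binding site, and which start the 22Rv1 transcripts use is not given in the sources used here. The windows of SLC7A5, SLC38A2 and SLC43A1 held no match. The 5 matches are shown with the motif in capitals as it reads on the gene's strand (TTNCATCA is the same motif on the opposite strand):
SLC1A4: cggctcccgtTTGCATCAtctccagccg
SLC1A5: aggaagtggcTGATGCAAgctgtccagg
SLC3A2: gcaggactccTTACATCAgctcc
SLC7A1: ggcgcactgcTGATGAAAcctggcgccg
SLC38A1: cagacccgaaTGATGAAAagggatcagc
The stretches lie at chr2:64989382-64989409 (plus strand), chr19:46784894-46784921 (minus), chr11:62881726-62881748 (plus), chr13:29595664-29595691 (minus) and chr12:46266503-46266530 (minus). Counted from the annotated start as base 1, with no base 0, the motif covers −7 to 1 in SLC1A4, −97 to −90 in SLC1A5, 38 to 45 in SLC3A2, 8 to 15 in SLC7A1 and −4 to 4 in SLC38A1. For SLC7A1 the start is the gene's outermost annotated one, and for the other 4 it lies further downstream.

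**Figure D1:**
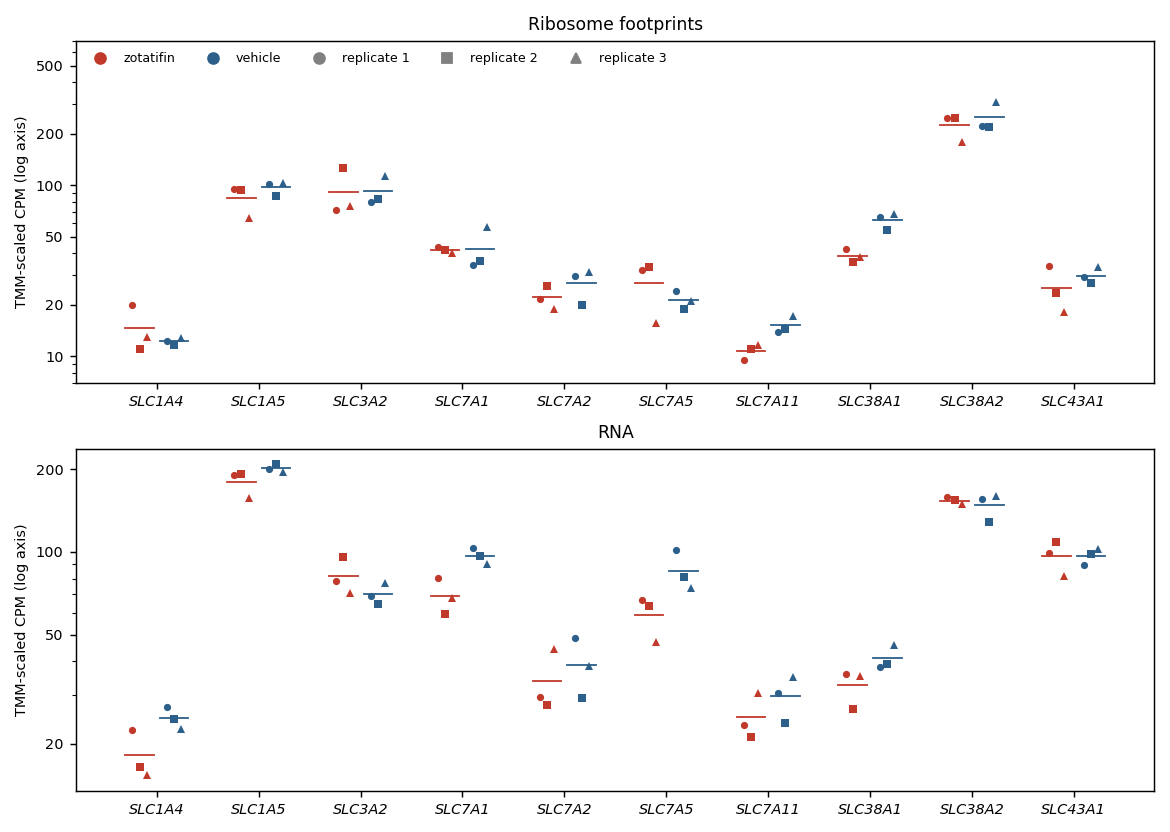
TMM-scaled CPM on a log axis in each library, for footprints (top) and RNA (bottom), with zotatifin in red left of vehicle in blue, one marker shape per replicate number and a line at each group's mean (n = 3). Footprints of SLC38A1 and SLC7A11 lie lower in all 3 zotatifin libraries, and RNA of SLC1A4, SLC1A5, SLC7A1, SLC7A5 and SLC38A1 does so in the lower panel.

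The footprint comparison asks how the ribosome load of these mRNAs, as a share of all footprints, differed after zotatifin. Of the 10 transporters, 1 fell (SLC38A1), 0 rose, and the other 9 did not pass the test and had unadjusted p above 0.05 (edgeR quasi-likelihood test, Benjamini-Hochberg adjusted p under 0.05). Over all 9544 genes tested, 7.14% were called in either direction, 3.22% rose and 3.92% fell, so a count of 1 in 10 is near the background. An unadjusted p under 0.05 was seen in 1 of the 10, against 22.1% of all genes. The median log2 change of the 10 was −0.20, against 0.0030 over all genes, and 8 of the 10 values were below 0, against 49.7% of all genes. That median was −0.0081 without zotatifin tumour 3 and −0.085 without vehicle tumour 3, so its distance from 0 rests on single tumours. The 3 zotatifin libraries lay below the 3 vehicle libraries in 2 members (13.5% of all genes) and above them in 0 (12.9% of all genes).

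SLC38A1 (ENST00000552197, chromosome 12, 46183063 to 46269043, GRCh38.p14) had 42.5, 35.6 and 38.2 CPM in the footprints of zotatifin tumours 1, 2 and 3, against 64.9, 54.4 and 68.0 CPM in vehicle tumours 1, 2 and 3. All zotatifin tumours lay below all vehicle tumours. The raw counts behind these levels were 49, 29 and 59 with zotatifin and 132, 98 and 107 with vehicle. The log2 change was −0.68 ± 0.17 (SE), a level of 0.625 of vehicle (edgeR adjusted p = 0.0113). The call was lost without vehicle tumour 1 (log2 change −0.64, adjusted p = 0.0734) and kept without any other single tumour (edgeR adjusted p up to 0.0484). Fibroblast and myeloid marker sums were lower in the same zotatifin footprint libraries, as given above, and their part in this change was not tested.

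SLC38A2 (ENST00000256689) lies next to SLC38A1 on chromosome 12 (46358188 to 46372773) and was not called. Its footprints stood at 247, 246 and 179 CPM in zotatifin tumours, against 223, 219 and 306 CPM in vehicle tumours, so the groups overlapped (log2 change −0.16 ± 0.14, edgeR adjusted p = 0.530). The 95% interval of that change, 1.96 standard errors on each side, ran from −0.43 to 0.11.

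Among the light chains, SLC7A11 (ENST00000280612, chromosome 4, 138164097 to 138242349) had 9.55, 11.0 and 11.6 CPM in zotatifin footprints, against 13.8, 14.4 and 17.2 CPM in vehicle footprints. The groups did not overlap, yet they rest on 11, 9 and 18 counts with zotatifin and 28, 26 and 27 with vehicle. The change of −0.47 ± 0.29 was not called (edgeR adjusted p = 0.347, 95% interval −1.03 to 0.088). SLC7A5 (ENST00000261622, chromosome 16, 87830023 to 87869507) had 32.1, 33.1 and 15.5 CPM with zotatifin, against 24.1, 18.9 and 21.0 CPM with vehicle. Zotatifin tumour 3 was the lowest of all 6 tumours and the other 2 zotatifin tumours were the highest, so the groups overlapped (0.26 ± 0.25, adjusted p = 0.594). Their partner SLC3A2 (ENST00000377891, chromosome 11, 62856109 to 62888860) had 71.2, 126 and 75.7 CPM with zotatifin, against 80.1, 82.7 and 113 CPM with vehicle (−0.05 ± 0.18, adjusted p = 0.895). One tumour of each treatment stood above the others for this gene.

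Of the exchangers of small neutral amino acids, SLC1A4 (ENST00000234256, chromosome 2, 64988479 to 65023865) had 20.0, 11.0 and 12.9 CPM in zotatifin footprints, against 12.3, 11.7 and 12.7 CPM in vehicle footprints. Only 9 to 23 counts per zotatifin library and 20 to 25 per vehicle library lie behind these values, and zotatifin tumour 1 alone was clearly higher. SLC1A5 (ENST00000542575, chromosome 19, 46774883 to 46788594) had 94.6, 93.2 and 64.7 CPM with zotatifin, against 102, 86.6 and 103 CPM with vehicle. Neither was called (0.28 ± 0.29 for SLC1A4 and −0.23 ± 0.15 for SLC1A5, edgeR adjusted p = 0.619 and 0.374).

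The cationic transporter SLC7A1 (ENST00000380752, chromosome 13, 29509414 to 29595688) had 43.4, 41.7 and 40.1 CPM in zotatifin footprints, against 33.9, 36.1 and 57.2 CPM in vehicle footprints. The zotatifin values lay within the vehicle range (−0.01 ± 0.19, adjusted p = 0.990). SLC7A2 (ENST00000004531, chromosome 8, 17494069 to 17570566) had 21.7, 25.8 and 18.8 CPM with zotatifin, against 29.5, 20.0 and 31.1 CPM with vehicle (−0.32 ± 0.23, adjusted p = 0.455). SLC43A1 (ENST00000278426, chromosome 11, 57484534 to 57515702) had 33.8, 23.3 and 18.1 CPM with zotatifin, against 29.0, 26.6 and 33.0 CPM with vehicle (−0.25 ± 0.22, adjusted p = 0.548). Groups overlapped for both.

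The RNA comparison asks whether the mRNAs themselves changed in level by 6 h. By edgeR 0 of the 10 rose or fell at an adjusted p under 0.05, against 1.72% of 13118 genes (0.808% rose and 0.907% fell). An unadjusted p under 0.05 was seen in 4 of 10, against 18.3% of all genes, and all 4 had a negative change, against 9.74% of all genes. DESeq2 called 1, SLC7A1 (adjusted p = 0.0428). The median log2 change was −0.22 in the members and −0.0023 over all genes, and 8 of the 10 values were below 0, against 50.3% of all genes. With 1 tumour left out, the median ran from −0.36 (without zotatifin tumour 3) to −0.17 (without zotatifin tumour 2), and was −0.35 without vehicle tumour 2. In 5 members, SLC1A4, SLC1A5, SLC7A1, SLC7A5 and SLC38A1, the 3 zotatifin libraries lay below the 3 vehicle libraries, a pattern seen in 10.9% of all genes. In 0 members they lay above (12.3% of all genes).

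SLC7A5 RNA had 66.7, 63.5 and 47.1 CPM in zotatifin tumours, against 102, 80.9 and 73.8 CPM in vehicle tumours. The groups did not overlap, and the change of −0.53 ± 0.15 (95% interval −0.82 to −0.24) missed the threshold (edgeR adjusted p = 0.0658). SLC7A1 RNA had 80.4, 59.5 and 67.7 CPM with zotatifin, against 103, 96.9 and 90.3 CPM with vehicle (−0.48 ± 0.13, 95% interval −0.74 to −0.22, adjusted p = 0.0600). These 2 genes had the lowest adjusted p of the 10, and the closing section gives the other settings in which they were called, 3 for SLC7A1 and 2 for SLC7A5.

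SLC1A4 RNA had 22.5, 16.5 and 15.3 CPM with zotatifin, against 27.1, 24.6 and 22.7 CPM with vehicle (−0.44 ± 0.18, adjusted p = 0.202). SLC38A1 RNA had 36.0, 26.8 and 35.2 CPM with zotatifin, against 37.9, 39.1 and 45.9 CPM with vehicle (−0.33 ± 0.16, adjusted p = 0.269). Both gave separated groups with a change that did not pass the test. SLC1A5 RNA had 190, 192 and 157 CPM with zotatifin, against 201, 208 and 196 CPM with vehicle, a separation that rests on small gaps (−0.17 ± 0.12, adjusted p = 0.491).

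For the other 5 members the RNA of the groups overlapped. SLC3A2 RNA, at 78.4, 95.6 and 71.0 CPM with zotatifin, against 69.2, 64.8 and 77.3 CPM with vehicle, had a positive change of 0.21 ± 0.13 (adjusted p = 0.427). SLC38A2 RNA had 158, 154 and 149 CPM with zotatifin, against 156, 129 and 160 CPM with vehicle (0.05 ± 0.12, adjusted p = 0.859). SLC43A1 averaged 96.8 ± 13.8 CPM with zotatifin and 96.9 ± 6.58 CPM with vehicle (SD, n = 3 each), with a 95% interval of its log2 change from −0.26 to 0.25. SLC7A11 averaged 25.0 ± 4.91 CPM with zotatifin and 29.7 ± 5.63 CPM with vehicle, and SLC7A2 33.8 ± 9.06 and 38.8 ± 9.58 CPM, also in that order (SD, n = 3 each; adjusted p = 0.484 and 0.618).

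**Figure D2:**
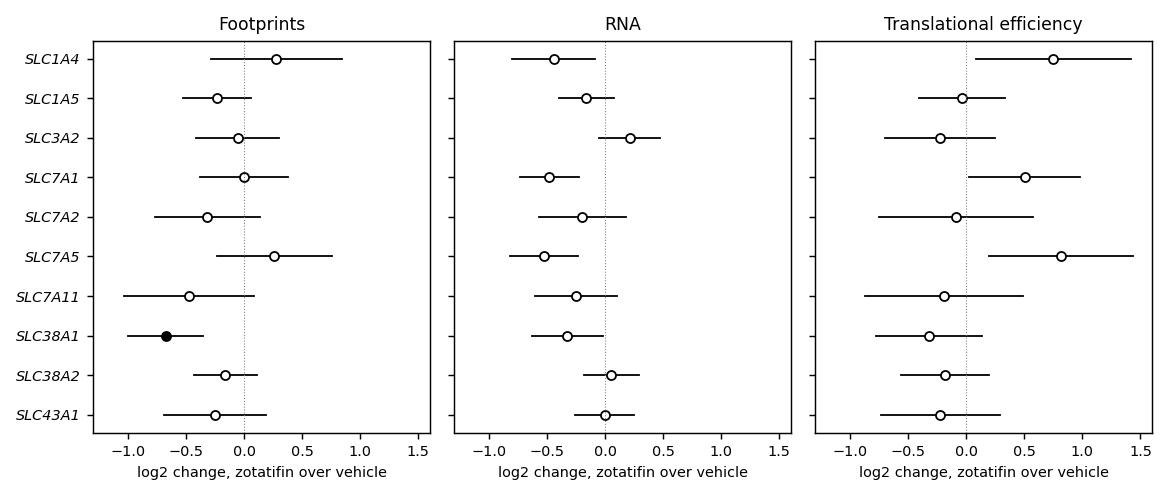
Log2 change, zotatifin over vehicle, of each transporter in footprints, RNA and translational efficiency (edgeR; bars span 1.96 standard errors on each side, n = 3 tumours per treatment). Filled points passed an adjusted p under 0.05, which is the case for SLC38A1 in footprints alone. The fit of translational efficiency shown has no term for single tumours.

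Translational efficiency (TE) sets a gene's footprint CPM against its RNA CPM in the same tumour, as a log2 ratio. Its change was the assay by treatment interaction of 1 model over the 12 libraries, with no term for single tumours. With zotatifin the mean TE of the members was highest for SLC38A2 (0.53 ± 0.23), SLC38A1 (0.25 ± 0.15) and SLC3A2 (0.12 ± 0.27), and lowest for SLC43A1 (−1.99 ± 0.37, SD, n = 3). With vehicle the same 3 genes came first (0.74 ± 0.21, 0.61 ± 0.15 and 0.37 ± 0.17), and SLC43A1 (−1.72 ± 0.14) and SLC7A5 (−2.00 ± 0.16) came last. The middle of the vehicle order ran through SLC7A2 (−0.53 ± 0.21), SLC7A11 (−0.97 ± 0.22), SLC1A4 (−1.02 ± 0.16), SLC1A5 (−1.06 ± 0.18) and SLC7A1 (−1.23 ± 0.50), where the vehicle ranges of neighbouring genes overlapped. The gap between SLC3A2 and SLC7A2 was the one place near the top where no vehicle tumour of one gene reached those of the next. Among 9448 genes with a ratio in every tumour, SLC7A5 stood at percentile 21.6 with zotatifin and 9.06 with vehicle, and SLC38A2 at 74.0 with zotatifin and 76.9 with vehicle.

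By edgeR in that model 0 of the 10 changed in TE at an adjusted p under 0.05, against 1.69% of 9454 genes (0.476% rose and 1.22% fell). A fit with a term for each tumour, given below, called 1 of the 10, against 8.66% of all genes. DESeq2 called 0 of the 8 members to which it gave an adjusted p (not SLC1A4 or SLC7A11). In the edgeR fit without tumour terms, 3 had an unadjusted p under 0.05, against 15.3% of all genes. Those 3 were SLC7A5, SLC1A4 and SLC7A1, and all 3 had a positive change, so that 0 had a negative one. Over all genes the 15.3% was made up of 8.32% with a negative change and the rest with a positive one. The 3 zotatifin tumours lay above the 3 vehicle tumours in 2 members (10.7% of all genes) and below them in 1 (15.6% of all genes). The median change was −0.14 in the members and 0.016 over all genes, and 7 of the 10 values were below 0, against 48.1% of all genes. Without zotatifin tumour 3 the members' median was −0.0051, and without vehicle tumour 3 it was −0.037.

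TE of SLC7A5 was −1.06, −0.94 and −1.60 in zotatifin tumours, against −2.08, −2.10 and −1.82 in vehicle tumours. All zotatifin tumours lay above all vehicle tumours, with a change of 0.82 ± 0.32 (SE, edgeR adjusted p = 0.193). Because the footprint and RNA libraries of a tumour come from 1 lysate, a second fit gave each tumour a term of its own (a tumour block), and there SLC7A5 rose by 0.85 ± 0.24 (adjusted p = 0.0172), the sole member called. That fit called 819 genes, 8.66% of those tested, and 3.62% rose. Leaving out tumours within that fit, an alternative added after the values were seen, lost the call without zotatifin tumour 1 (adjusted p = 0.107), zotatifin tumour 2 (0.0989) or vehicle tumour 1 (0.0724), and the change ran from 0.74 to 1.02.

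TE of SLC1A4 was −0.17, −0.58 and −0.25 in zotatifin tumours, against −1.14, −1.07 and −0.83 in vehicle tumours, again without overlap (0.75 ± 0.34, adjusted p = 0.287, and 0.131 with the tumour block). Its footprints counted 9 to 25 reads per library. TE of SLC7A1 was −0.89, −0.51 and −0.76 with zotatifin, against −1.61, −1.43 and −0.66 with vehicle, so that vehicle tumour 3 lay within the zotatifin range (0.50 ± 0.24, adjusted p = 0.320, and 0.131 with the tumour block). The change of SLC7A1 was 0.80 without vehicle tumour 3 (adjusted p = 0.139) and 0.30 without vehicle tumour 1 (0.708), and within the tumour block it passed the test without vehicle tumour 3 (0.79, adjusted p = 0.0194). In these 3 genes the RNA change was below 0 while the footprint change was near or above 0.

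TE of SLC38A1 was 0.24, 0.41 and 0.12 in zotatifin tumours, against 0.77, 0.48 and 0.57 in vehicle tumours. The groups lay apart, with a change of −0.32 ± 0.23 that was not called (edgeR adjusted p = 0.539). The 95% interval of that change ran from −0.78 to 0.13. The other 6 members had TE changes from −0.23 (SLC3A2) to −0.04 (SLC1A5), all with overlapping groups.

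**Figure D3:**
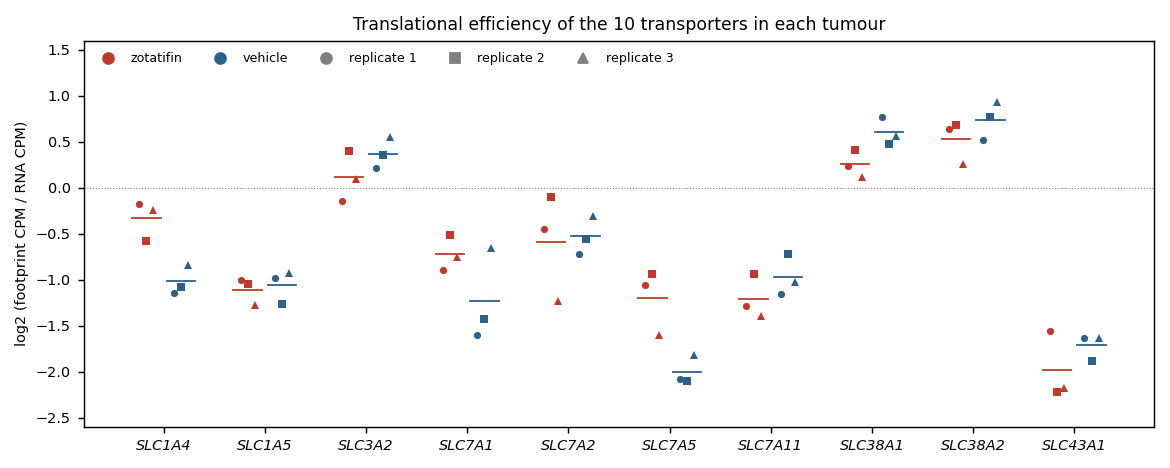
Log2 ratio of footprint to RNA CPM in each tumour, zotatifin in red left of vehicle in blue, with one marker shape per replicate number and a line at each group's mean (n = 3). SLC7A5 and SLC1A4 lie higher in all 3 zotatifin tumours and SLC38A1 lies lower.

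**Figure D4:**
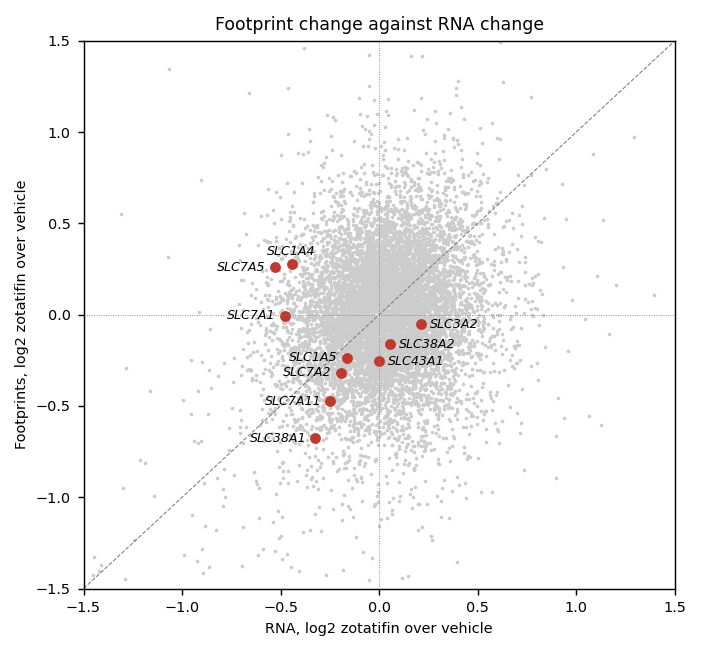
Footprint change against RNA change (log2, zotatifin over vehicle) for the 10 transporters in red and the other genes tested in both assays in grey, with a dashed line of equal change. Of 9454 genes, 51 lie outside the plotted range of 1.5 in either direction. SLC7A5, SLC1A4 and SLC7A1 lie above the line on its left, and SLC38A1 lies lowest.

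In the authors' deposited table of the footprint comparison, whose estimate was read as a change of TE on the natural log scale, SLC7A5 had 0.57 (0.82 as log2) with an FDR of 0.00131. In the same authors' deposited table SLC7A1 had 0.33 (0.48 as log2) with an FDR of 0.0204, SLC1A4 an FDR of 0.0680 and SLC38A1 an estimate of −0.30 (−0.43 as log2) with an FDR of 0.0818. The other 6 members had FDRs from 0.143 to 0.922 in the authors' deposited table. The share of all its genes at such FDRs was not counted here. The edgeR test of TE without the tumour block gave an adjusted p = 0.193 for SLC7A5 and 0.320 for SLC7A1. In the authors' deposited table of the RNA comparison, SLC7A1 had an adjusted p of 0.0436 and SLC7A5 of 0.0601, with log2 changes of −0.48 and −0.53.

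Ratios of counts within 1 library do not depend on the scaling between libraries, and 5 pairs of partners or relatives were compared in both assays. The pairs were chosen after the values were seen, and with 3 against 3 tumours the two-sided exact permutation test cannot go below p = 0.1. RNA of SLC7A5 relative to that of its heavy chain SLC3A2 was 0.852, 0.664 and 0.663 in zotatifin tumours, against 1.47, 1.25 and 0.955 in vehicle tumours. All zotatifin ratios lay below all vehicle ratios, at 0.598 of vehicle (exact permutation p = 0.1, and 0.333 adjusted over the 10 ratios). In footprints the same ratio was 0.451, 0.262 and 0.205 with zotatifin, against 0.301, 0.228 and 0.185 with vehicle, and the groups overlapped (exact permutation p = 0.6). Leaving out 1 tumour turned the sign of the footprint difference (log2 change 0.31 over all tumours, lowest −0.0095).

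The ratio of SLC38A1 to SLC38A2 was 0.172, 0.144 and 0.213 in zotatifin footprints, against 0.291, 0.249 and 0.222 in vehicle footprints (0.690 of vehicle, exact permutation p = 0.1, adjusted 0.333). In RNA it was 0.227, 0.174 and 0.236 with zotatifin, against 0.244, 0.304 and 0.286 with vehicle (0.761 of vehicle, exact permutation p = 0.1, adjusted 0.333). Both assays come from the same tumours, and both separated the treatments in the same direction. The nearest ratios of the groups were 0.213 and 0.222 in footprints and 0.236 and 0.244 in RNA. The ratios of SLC7A11 to SLC3A2, SLC1A4 to SLC1A5 and SLC7A1 to SLC7A2 overlapped between treatments in both assays (exact permutation p from 0.2 to 0.5).

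**Figure D5:**
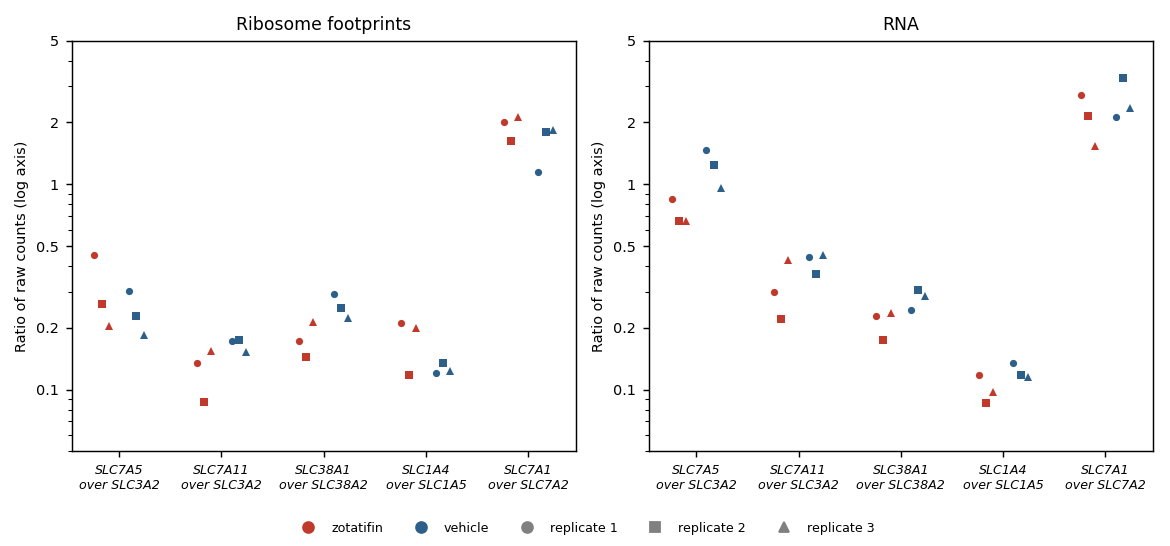
Ratio of raw counts of 5 pairs of transporters within each library on a log axis, for footprints (left) and RNA (right), zotatifin in red left of vehicle in blue and one marker shape per replicate number (n = 3). The groups are separate for SLC7A5 over SLC3A2 in RNA and for SLC38A1 over SLC38A2 in both assays.

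The level of SLC3A2 over the 12 libraries, with each assay's mean removed, was most like that of NSFL1C, a cofactor of the p97 ATPase in membrane fusion (Pearson r = 0.94), BCAP31, a chaperone of the endoplasmic reticulum membrane (0.86), and ATP6V0B, a subunit of the proton pump of lysosomes (0.84), among 4888 genes that averaged 50 counts or more in each assay. Of the 4 other members in that set, SLC38A2 had 0.58, SLC1A5 0.26, SLC7A1 −0.05 and SLC38A1 −0.18. The values share libraries, depth and tumours and are a description over 12 points.

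Genes around the transporters were taken from 4 lists. Their TE results come from fits without the tumour block. Of 34 other plasma membrane amino acid transporters in the tables, 6 had enough footprints to be tested. By edgeR 0 rose and 0 fell, and 1 of the 6 had an unadjusted p under 0.05, against 22.1% of all genes. DESeq2 gave an adjusted p for 0 of them, and the median log2 change was −0.24. In RNA 18 could be tested, with 0 rising and 0 falling (0 of 16 by DESeq2) and a median of −0.28. Of these 18, 2 had an unadjusted p under 0.05 by edgeR, against 18.3% of all genes. In TE 0 of 6 were called by edgeR and 0 had an unadjusted p under 0.05, against 15.3% of all genes. DESeq2 called 0 of the 2 it gave an adjusted p.

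Of 27 tested genes of lysosomal amino acid transport and of amino acid sensing by the growth kinase complex mTORC1, 1 rose and 2 fell in footprints, against a background of 7.14% called (median −0.07). WDR24, a part of the GATOR2 complex that relays amino acid signals, had 46.9, 39.2 and 32.3 CPM with zotatifin, against 23.1, 22.8 and 21.0 CPM with vehicle (0.80 ± 0.20, edgeR adjusted p = 0.0132). Without zotatifin tumour 1 or vehicle tumour 1 its call was lost (adjusted p up to 0.104). LAMTOR3, a part of the Ragulator scaffold that holds mTORC1 regulators at the lysosome, had 49.5, 60.1 and 55.6 CPM in zotatifin footprints, against 83.5, 77.2 and 79.4 CPM in vehicle footprints (−0.55 ± 0.15, adjusted p = 0.0193), while its RNA was 29.9, 30.2 and 31.5 CPM with zotatifin, against 24.7, 28.6 and 20.3 CPM with vehicle. Its TE fell (−0.84 ± 0.21, adjusted p = 0.0370), the 1 TE call among 27 genes of that list, where 0 rose. Over all genes tested in TE, 1.69% were called and 1.22% fell. The footprint call of LAMTOR3 was lost without zotatifin tumour 1 or 3 or vehicle tumour 1 (adjusted p up to 0.108), and its TE call without zotatifin tumour 1 or 3 or vehicle tumour 1 or 3 (up to 0.165).

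The GTPase SAR1B, known for vesicle budding and as a leucine sensor, fell in footprints (75.3 ± 10.4 CPM with zotatifin and 110 ± 15.1 CPM with vehicle, SD, n = 3 each; log2 change −0.51 ± 0.14, edgeR adjusted p = 0.0260). SAR1B also fell in RNA (−0.59 ± 0.12, adjusted p = 0.0184), as the sole call of 34 tested genes of that list in RNA. Over all genes tested in RNA, 1.72% were called and 0.907% fell. The RNA call was lost without zotatifin tumour 1 or vehicle tumour 1 or 3 (adjusted p up to 0.105), and the footprint call without zotatifin tumour 1 or 2 or vehicle tumour 1 or 3 (up to 0.122). DESeq2 gave an adjusted p to 12 genes of that list in footprints (not WDR24) and called 0 of them, and it called SAR1B in RNA and LAMTOR3 in TE.

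Of 25 tested genes of the amino acid response, which ATF4 drives, 2 rose and 1 fell in footprints, against a background of 7.14% called, 3.22% rising and 3.92% falling (median 0.19, against 0.0030 over all genes). PHGDH, the first enzyme of serine synthesis, had 172 ± 25.0 CPM with zotatifin and 126 ± 15.6 CPM with vehicle (SD, n = 3 each; 0.45 ± 0.13, edgeR adjusted p = 0.0302). SHMT2, which turns serine into glycine in mitochondria, rose by 0.34 ± 0.10 (adjusted p = 0.0422), and XPOT, the exporter of tRNA from the nucleus, changed by −0.44 ± 0.13 (adjusted p = 0.0340). In RNA 0 of 29 and in TE 0 of 25 genes of that list were called by edgeR. In that order, 4 and 3 had an unadjusted p under 0.05, against 18.3% and 15.3% of all genes. The median TE change of the list was 0.22, against 0.016 over all genes. All zotatifin tumours lay above all vehicle tumours in TE for 7 of the 25 genes (10.7% of all genes) and below them for 2 (15.6% of all genes). DESeq2 called 0 of 28 in RNA and 0 of 24 in TE. The PHGDH call was lost without zotatifin tumour 1 or 2 or vehicle tumour 1 or 3 (adjusted p up to 0.219), SHMT2 without any tumour but vehicle tumour 2 (up to 0.265), and XPOT without zotatifin tumour 1 or 2 or vehicle tumour 1 or 2 (up to 0.206). In footprints DESeq2 called SHMT2 of these 3.

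Of 20 tested enzymes of glutamine, cystine and glutathione metabolism, 2 rose and 1 fell in footprints, against a background of 7.14% called (median 0.061). BCAT2, the mitochondrial aminotransferase of branched-chain amino acids, had 207, 251 and 191 CPM with zotatifin, against 139, 165 and 144 CPM with vehicle (0.52 ± 0.12, edgeR adjusted p = 0.00736), a call lost only without vehicle tumour 1 (0.0792). GPX4, which uses glutathione to reduce lipid peroxides, rose by 0.39 ± 0.12 (adjusted p = 0.0456, lost without zotatifin tumour 2 or 3 or vehicle tumour 1 or 3, up to 0.212). DESeq2 called BCAT2 in footprints and not GPX4. In RNA 0 of 22 and in TE 0 of 20 of these enzymes were called by edgeR. In that order, 4 and 2 had an unadjusted p under 0.05, against 18.3% and 15.3% of all genes. DESeq2 called 0 of 21 in RNA and 1 of 18 in TE, GCLC, the rate-limiting enzyme of glutathione synthesis, chosen here because it was that call (edgeR −0.67 ± 0.20, adjusted p = 0.0767).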

How the data were processed

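The deposited tables of footprints and RNA hold raw counts per transcript. Per the submitters' processing notes, cutadapt 2.3 and Bowtie2 2.3.5 were used, with UMI-tools, DESeq2 and the hg38 build. Not given in the sources used here are their order, the strand setting, the counted part of the transcript and any removal of mouse reads. Per the labels, footprints came from monosome fractions and gel bands between 24 and 34 nt, and groups follow the titles and column names, where 226 was read as the development code of zotatifin. The treatment field names zotatifin for all footprint libraries and none for all RNA libraries, against the titles. In the authors' deposited RNA table the mean is a signal of normalised counts, the change and its error are log2, the statistic is a Wald score, and p-values come plain and adjusted. The authors' footprint estimate was taken as natural log of a TE change, since over 1566 genes its weights on the log2 footprint and RNA changes were 0.665 and −0.666 (the natural log of 2 is 0.693).

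Tests were run on the deposited counts in R 4.3.3 with edgeR 4.0.16 (filterByExpr with minimum count 10 and minimum total 15, TMM, quasi-likelihood F test with robust dispersions, adjusted over all genes). They were checked on simulated data. The SE is the log2 change divided by the square root of F. The TE test was the assay by treatment interaction. DESeq2 1.42.0 was an alternative, with RLE scaling, no count filter, each tumour left out and blocks. With group means removed, the footprint library of a tumour number correlated with the RNA library of that number at 0.217 to 0.440 (6 pairs, prior count 2, 4889 genes), against −0.381 to 0.119 for other numbers, and the labels derive both from 1 lysate, so numbers pair assays within a tumour. Across treatments the same number gave −0.0946 to 0.181, so it does not pair treatments. The labels call replicates biological. The members, gene lists and alternatives were chosen with earlier results of these data known. All 10 members are described. From each list, genes called in any comparison are named, at most 4 per comparison. A called gene of the glutamine, cystine and glutathione list is not reported here. All 10 symbols matched the RefSeq gene table, and 8 the RefSeq promoter table.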

Additional observations from a re-analysis of the deposited data

How the results depend on the processing

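Of the transporters, the 1 footprint call (SLC38A1) was made under every alternative but the one without vehicle replicate 1, so the count ran from 0 to 1 over the tumours left out. It passed narrowly with DESeq2 (adjusted p = 0.0437) and without vehicle replicate 3 (edgeR adjusted p = 0.0484). In footprints DESeq2 gave an adjusted p only to SLC1A5, SLC3A2, SLC7A1, SLC38A1 and SLC38A2 among the members. The RNA count of 0 became 1 with DESeq2, 2 with no low-count filter and 2 with the replicate block, where SLC7A1 (adjusted p = 0.0428, 0.0230 and 0.0199) and, in the last 2, SLC7A5 (0.0108 and 0.0119) fell. It stayed at 0 with RLE scaling and with each tumour left out. The replicate number does not pair treatments, as given above, so the replicate block is not a pairing of tumours. The TE count of 0 became 1 with the tumour replicate block (SLC7A5) and stayed at 0 under every other setting without that block, the replicate block across treatments included (SLC7A5 0.84, adjusted p = 0.0582). Within the tumour block, with a tumour left out (added after the data were seen), SLC7A5 was called without zotatifin replicate 3, vehicle replicate 2 or vehicle replicate 3, and SLC7A1 without vehicle replicate 3. The replicate block left the footprint count at 1 (SLC38A1 −0.69, adjusted p = 0.00857) and changed no other footprint call of a member. Over all genes, RNA calls went from 225 to 527 with the replicate block (both of 13118 genes tested) and to 624 with no filter (of 18338). They went to 195 with RLE and 327 with DESeq2, and to 11 to 396 with a tumour left out. Footprint calls went from 681 to 416 with DESeq2 and 185 to 726 with a tumour left out. TE calls went from 160 to 272 with DESeq2, 344 with the replicate block, 819 with the tumour block and 56 to 132 with a tumour left out.

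No called change reversed. The sign of a change near 0 turned for SLC3A2 footprints without zotatifin replicate 1 (0.08), zotatifin replicate 3 (0.07) or vehicle replicate 3 (0.11; lowest −0.30), for SLC7A1 footprints without zotatifin replicate 3 (0.03) or vehicle replicate 3 (0.25; lowest −0.15), and for SLC38A2 footprints without vehicle replicate 3 (0.0049; lowest −0.25). In RNA it turned for SLC43A1 with no filter (0.014) or without zotatifin replicate 3 (0.10), vehicle replicate 2 (0.010) or vehicle replicate 3 (0.042; lowest −0.093), and for SLC38A2 without vehicle replicate 2 (−0.036; highest 0.12). In TE it turned for SLC1A5 without zotatifin replicate 3 (0.051) or vehicle replicate 3 (0.014; lowest −0.13) and for SLC7A2 without zotatifin replicate 3 (0.27) or vehicle replicate 3 (0.013; lowest −0.31). The cause was not tested. Footprints of SLC1A4, SLC7A11 and SLC7A5 rest on 9 to 49 counts per library, which limits what can be resolved for them.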
